A study of Mus musculus with 23 samples.

Results

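The genes described here are 10 genes of the p53 and senescence programme, taken from a list of names whose rule uses no measured value, although the list was drawn up with earlier results of these data known, out of the 55487 gene identifiers counted in mouse embryonic fibroblasts (MEFs) with different forms of the glucocorticoid receptor (GR). They are Trp53 and its inhibitor Mdm2, the cyclin-dependent kinase (CDK) inhibitor genes Cdkn1a, Cdkn1b, Cdkn2a and Cdkn2b, and the p53 target genes Ccng1, Bax, Sesn1 and Trp53inp1. All 10 were among the 15748 genes that passed the filter on low counts and were tested. The MEFs were untransformed primary cultures of the FVB/NJ strain, grown from embryos of heterozygous intercrosses, and each of the 3 cultures per genotype came from a different mouse. Per genotype, cells received vehicle (ethanol) or 10 nM dexamethasone (Dex), a synthetic GR ligand, for 5 h, and bulk RNA was sequenced. The genotypes were GRwt/wt with the unmodified receptor, GRD/D with a point change at the surface through which the DNA-binding domains of a dimer touch, GRL/L with a point change in the ligand-binding domain, and GRD+L/D+L with both changes. All changes were homozygous and in the germ line. All 8 groups held 3 libraries except GRD/D vehicle, which held 2, giving 23 libraries in all. Counts are summed per gene, so they do not show which GR allele a culture carried.

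p53, the product of Trp53, is a transcription factor that cells stabilise after DNA damage, oncogene activity or prolonged culture, and it then switches on genes that arrest or kill the cell. Mdm2, itself a p53 target, marks p53 for degradation and closes a feedback loop. Primary MEFs are a classic system for this programme, because they stop dividing after a limited number of passages as the Ink4-Arf locus, which holds Cdkn2a and Cdkn2b, becomes active. The Arf product of Cdkn2a restrains Mdm2, its Ink4a product and the product of Cdkn2b inhibit the kinases CDK4 and CDK6, and p21 (Cdkn1a) and p27 (Cdkn1b) inhibit CDK2 complexes. Glucocorticoids act through GR, which binds DNA as a dimer at glucocorticoid response elements and can arrest growth in several cell types.

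The genes lie at the following positions of the GRCm38 build in the GENCODE M21 annotation. Trp53 spans chr11:69580359-69591873 and Mdm2 spans chr10:117688875-117710758. Of the CDK inhibitor genes, Cdkn1a lies at chr17:29090976-29100727, Cdkn1b at chr6:134920401-134925513, Cdkn2a at chr4:89274471-89294653 and Cdkn2b beside it at chr4:89306299-89311039. The targets Ccng1, Bax, Sesn1 and Trp53inp1 lie at chr11:40748552-40755311, chr7:45461697-45466898, chr10:41809935-41908424 and chr4:11156431-11174379. All 10 are annotated as protein coding, and values are sums over all exons of a gene. Cdkn2a counts therefore merge the Ink4a and Arf transcripts, which start at different first exons. Bax shares 192 exonic bases on its own strand with Gm45808 and Cdkn1a shares 273 exonic bases with AC167363.2 on the other strand, so part of their reads could belong to these neighbours. The gene 9930024M15Rik overlaps Sesn1 without sharing an exonic base.

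Most of these genes hold letters that match the recognition sequence of p53 shortly before a start site, and these stretches are printed because several of the genes are known targets of p53. RefSeq windows of 250 bases before to 50 bases after a start (GRCm38.p6) were found for 9 of the 10 genes, with 12 windows in all, and both strands were searched. The 10-base recognition unit of p53, which reads alike on both strands, occurred in 6 genes and in 6 of the 12 windows, against 8.36% of the 32851 windows in the whole table. The stretches below run 5′ to 3′ on the strand of the gene with the matches in capitals and 20 flanking bases, and negative positions count from the start site.
Trp53, chr11:69580264-69580313, plus strand, match at -75: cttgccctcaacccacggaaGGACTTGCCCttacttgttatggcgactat
Cdkn1a, chr17:29090886-29090957, plus strand, matches at -73 and -51: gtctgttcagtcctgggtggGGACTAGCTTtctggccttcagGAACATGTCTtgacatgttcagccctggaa
Mdm2, chr10:117710915-117710964, minus strand, match at -186: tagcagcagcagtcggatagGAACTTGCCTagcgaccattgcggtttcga
Ccng1, chr11:40755442-40755491, minus strand, match at -185: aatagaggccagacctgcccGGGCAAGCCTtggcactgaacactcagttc
Bax, chr7:45467070-45467119, minus strand, match at -201: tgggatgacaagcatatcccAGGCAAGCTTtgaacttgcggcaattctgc
Cdkn1a was the only one of the 10 with 2 matches. Both lie before its upstream start, and the window of its downstream start (chr17:29093519-29093818) held none. Adjoining p53 matches at most 3 bases apart were found in 0 of the 10 genes and in 0.0183% of all windows. The search allowed no mismatch, so it does not show that the windows lack a full p53 site. In Cdkn1a, the 10 letters directly after the match at -51 differ from the recognition unit in their first base only. For Sesn1, the gene with the largest response to Dex below, the 250 bases before its downstream start are given in full, with the p53 match in capitals. They lie in an intron of the longer Sesn1 transcript.
Sesn1, chr10:41887189-41887438, plus strand, match at -173: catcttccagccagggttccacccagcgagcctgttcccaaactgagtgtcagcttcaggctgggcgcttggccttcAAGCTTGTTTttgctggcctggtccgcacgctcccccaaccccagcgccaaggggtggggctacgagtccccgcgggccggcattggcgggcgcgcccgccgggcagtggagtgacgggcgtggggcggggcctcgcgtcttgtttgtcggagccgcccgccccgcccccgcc
The letters TGTTCT, 1 arm of a glucocorticoid response element, were found in the windows of 0 of the 10 genes and in 19.0% of all windows. FOXO letters (GTAAACA, overlapping none of the p53 matches) occurred in Mdm2 and in the upstream window of Sesn1, against 3.65% of all windows, and E2F letters (TTTCCCGC) occurred in the upstream, Arf-side window of Cdkn2a, against 1.07%. These matches are descriptions of short windows and were not tested for binding.

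Totals ranged from 16452539 to 23117080 counts per library, and each of the 10 genes had at least 378 counts in every library. The summed level of 10 fibroblast markers was 40530 to 65590 CPM, the counts scaled by edgeR to a common library size with TMM factors, in all libraries. GRwt/wt vehicle replicate 1 stood apart. It reached a Spearman correlation of at most 0.916 with any other library, against at least 0.973 for the other 22, and its deviations from the gene medians followed transcript GC content (rho 0.68, against -0.20 to 0.32 elsewhere). GRwt/wt vehicle replicate 3 held 5351 CPM of 12 summed macrophage markers, against 17.1 to 108.4 CPM in the remaining libraries of that genotype, 291.4 to 1892 CPM in GRD/D, 335.4 to 833.8 CPM in GRL/L and 6.21 to 88.0 CPM in GRD+L/D+L. None of the 12 was at 0 in all libraries. Summed epithelial and endothelial markers stayed at or below 5.79 and 20.8 CPM.

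The GC pattern of GRwt/wt vehicle replicate 1 reached the p53 genes directly. Relative to the median of the other 22 libraries, it differed by -4.65 on the log2 scale in Trp53inp1 (38.8% GC), by -2.66 in Ccng1 (40.8% GC), by -1.38 in Mdm2 (46.2% GC) and by -0.90 in Cdkn1b (43.1% GC). Sesn1, with 49.8% GC, differed by -0.21. The 5 genes with the highest GC, Trp53, Cdkn1a, Cdkn2b, Cdkn2a and Bax (53.3% to 63.6%), were higher in it by 0.67 to 1.24. The GC-poor genes were thus low and the GC-rich genes high in this library, without a strict order within either set, and each comparison with GRwt/wt vehicle is therefore given with and without this library where that changes a call.

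**Figure D1:**
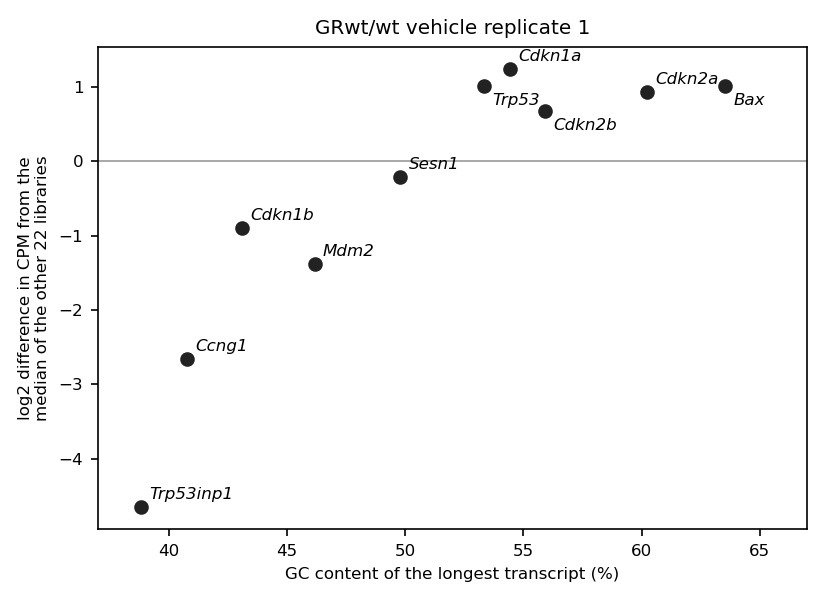
GC content of the longest transcript (x axis, %) and log2 difference in CPM of GRwt/wt vehicle replicate 1 from the median of the other 22 libraries (y axis), 1 point per gene. The 4 genes with the lowest GC lie below 0, from -4.65 for Trp53inp1 to -0.90 for Cdkn1b, the 5 with the highest GC lie above 0, and Sesn1 lies at -0.21.

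Compared per kilobase of exon, Ccng1 (cyclin G1, a p53 target) and Cdkn1a were the most abundant of the 10, with medians over 23 libraries of 231 and 209.7 CPM per kb. Cdkn2a followed with a median of 137.8 CPM per kb, then Trp53inp1 (79.7), Bax (52.6), Cdkn2b (51.6), Mdm2 (36.2), Trp53 (22.7), Cdkn1b (14.4) and Sesn1 (10.4). All of the Ink4-Arf and p53 target genes were thus well detected in these cultures. Between the lowest and the highest library, leaving out GRwt/wt vehicle replicate 1, Trp53 varied least, 1.52-fold, and Sesn1 most, 5.28-fold. Cdkn2b followed with 4.47-fold, Cdkn1a with 2.92-fold and Cdkn2a with 2.77-fold.

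**Figure D2:**
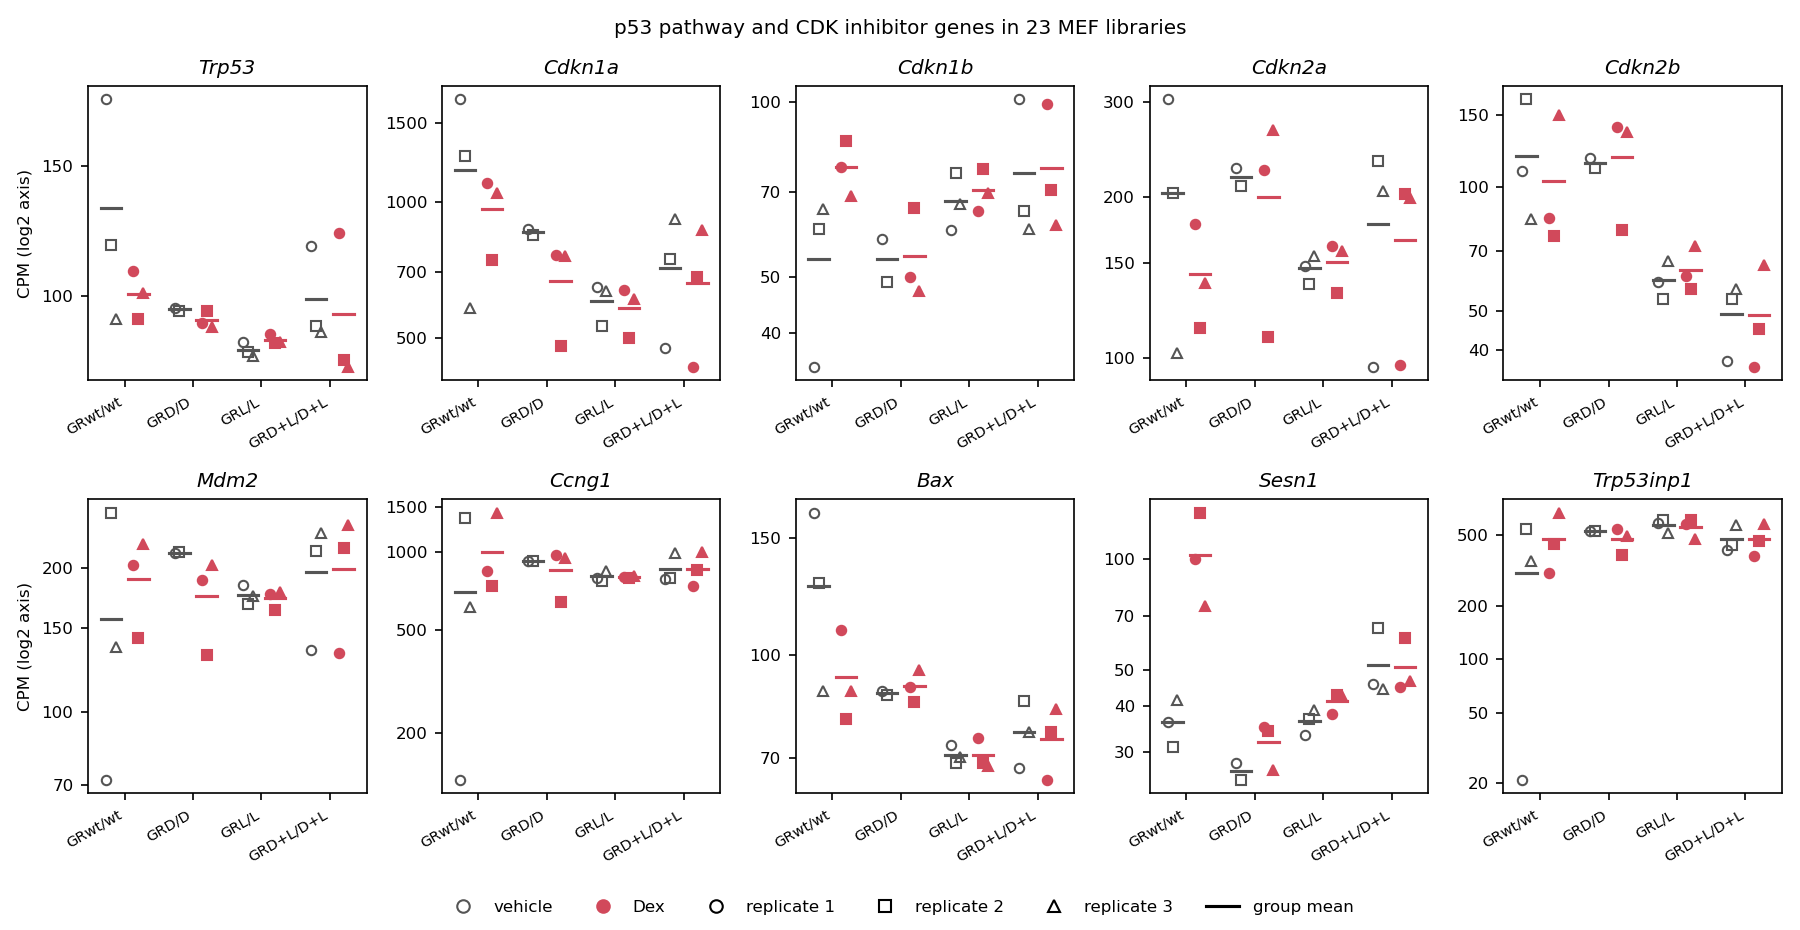
CPM of the 10 genes (log2 axis, 1 panel per gene) by genotype, with open grey symbols for vehicle and filled red symbols for 10 nM Dex. Symbol shapes give the replicate number and lines the group means. Sesn1 is the gene in which the GRwt/wt Dex libraries (74.5 to 133.2 CPM) lie above all others, and GRwt/wt vehicle replicate 1 is the lowest point for Mdm2, Ccng1 and Trp53inp1.

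The first comparison asked which of the genes respond to 10 nM Dex through the unmodified receptor. In GRwt/wt MEFs, Sesn1 was the member that passed the test, taken here as an adjusted p of at most 0.05 in the quasi-likelihood test of edgeR with Benjamini-Hochberg adjustment over all 15748 genes. Sesn1 encodes sestrin 1, a stress protein that restrains mTORC1 signalling and is a target of p53 and of FOXO factors. Its level was 36.2, 30.9 and 41.5 CPM in the vehicle libraries and 99.6, 133.2 and 74.5 CPM in the Dex libraries. The lowest Dex library was thus above the highest vehicle library. The rise was 2.83-fold, a log2 fold change (LFC) of 1.5 with a standard error (SE) of 0.20 (n = 3 and 3, edgeR adjusted p = 0.00158). In all, 35 genes passed the test in this comparison, 0.222% of those tested, among them the known GR target Fkbp5 with an LFC of 3.49 (SE 0.27, edgeR adjusted p = 2.67e-06). In GRD/D Fkbp5 was 32.6 and 31.1 CPM in vehicle and 118.0, 94.8 and 93.9 CPM under Dex, with no overlap, although it did not pass (LFC 1.68, SE 0.29, edgeR adjusted p = 0.137). Its vehicle and Dex libraries overlapped in GRL/L (25.3 to 29.2 CPM and 29.0 to 30.5 CPM) and in the double mutant (20.3 to 34.4 CPM and 21.7 to 35.9 CPM), but the Dex library was the higher in each of the 3 same-numbered pairs of both, by 0.07 to 0.195 and by 0.06 to 0.10 on the log2 scale. In the edgeR fit with culture as a block, given below, Fkbp5 did not pass in either (unadjusted p = 0.0683 and 0.314).

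The rise was as large without the libraries that stood apart. Without GRwt/wt vehicle replicates 1 and 3 together its LFC was 1.72 (edgeR adjusted p = 0.0238), and leaving out each of the 6 libraries in turn gave 1.27 to 1.68 with the call kept each time. The call did not hold in every fit. When just the 6 libraries of this genotype were fitted, the LFC was 1.51 (SE 0.28), but its adjusted p was 0.970, and the cause of this change was not tested. In bulk RNA, more RNA per cell and more cells that express a gene cannot be told apart.

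The other 9 genes did not pass in GRwt/wt. The largest shifts among them were Trp53inp1 (LFC 0.63, SE 0.60), Cdkn1b (0.52, SE 0.24), Ccng1 (0.51, SE 0.47), Cdkn2a (-0.50, SE 0.39) and Bax (-0.46, SE 0.17). With GRwt/wt vehicle replicate 1 left out these were 0.08, 0.29, 0.03, -0.09 and -0.23. Cdkn1b, the gene of p27, was 35.1, 60.6 and 65.5 CPM in vehicle and 77.2, 85.5 and 69.0 CPM under Dex. The groups did not overlap, but the adjusted p was 0.292, and the lowest of the vehicle values was from the GC-shifted library. Cdkn1a, encoding p21, was 1688, 1263 and 583.0 CPM in vehicle and 1102, 745.2 and 1047 CPM under Dex (LFC -0.29, SE 0.33). Its vehicle libraries spanned the whole Dex range. Trp53 itself was 184.8, 117.1 and 93.1 CPM in vehicle and 108.1, 93.1 and 100.9 CPM under Dex (LFC -0.39, SE 0.20). With GRwt/wt vehicle replicate 1 left out, the LFC was 0.07 for Cdkn1a and -0.06 for Trp53. Without GRwt/wt vehicle replicate 3, Bax also passed in this comparison. The median LFC of the 10 genes was 0.04, beside -0.01 over all genes tested.

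**Figure D3:**
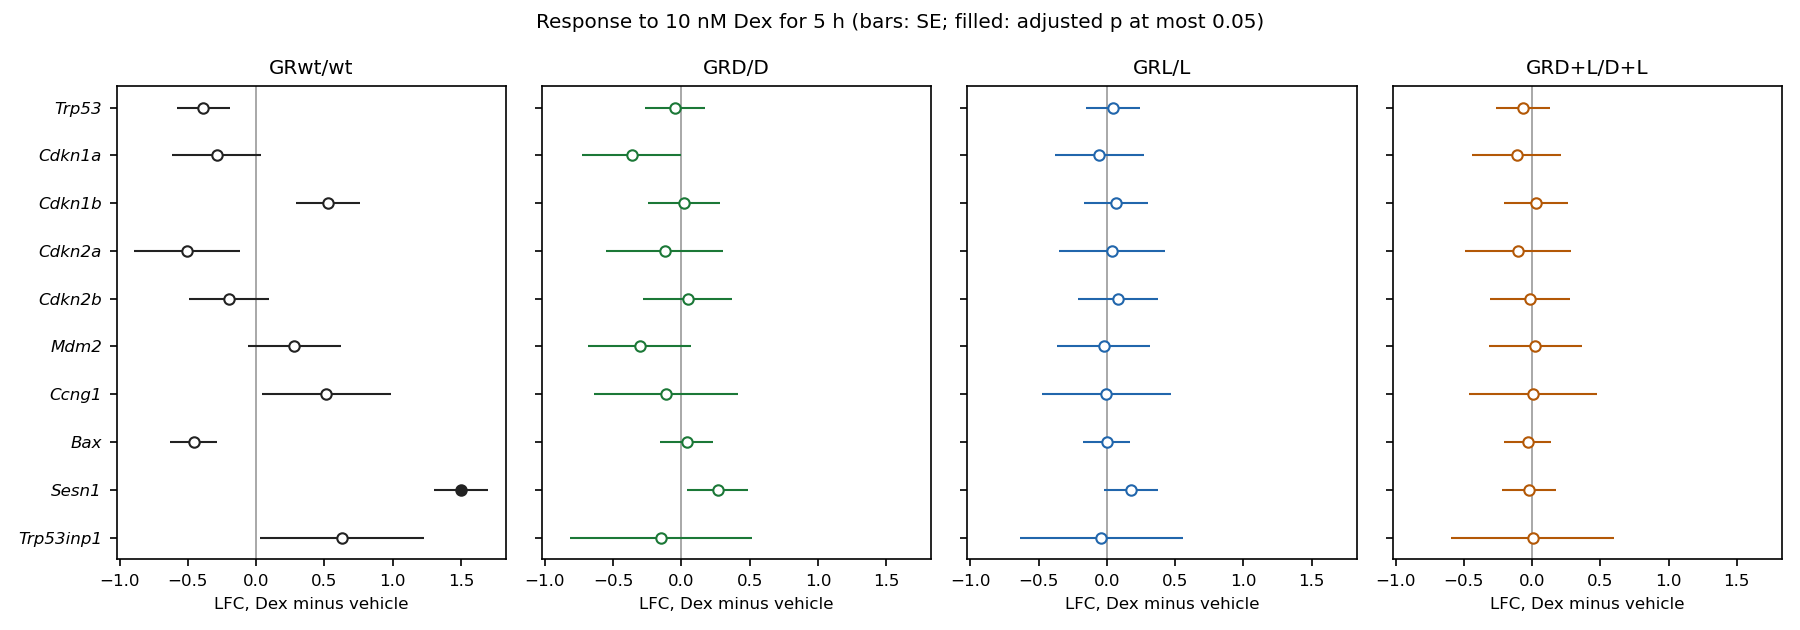
LFC of the 10 genes with Dex in each genotype (x axis, Dex minus vehicle, log2 scale). Bars are SE and filled points passed the test. Sesn1 in GRwt/wt, at 1.5, is the single filled point, and all 10 genes in the GRL/L and GRD+L/D+L panels lie between -0.11 and 0.18.

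In the mutant MEFs 0 of the 10 genes passed the test with Dex, and 0% of all genes did in each mutant. At an unadjusted p under 0.05 the count was also 0 of 10 in each, and DESeq2 called 0 of 10 in each. Sesn1 was 28.0 and 25.2 CPM in GRD/D vehicle and 35.0, 34.2 and 26.8 CPM in GRD/D Dex (LFC 0.26, SE 0.22). In GRL/L it was 33.3, 37.0 and 38.9 CPM in vehicle and 38.1, 42.9 and 42.5 CPM under Dex (LFC 0.18, SE 0.20). In GRD+L/D+L it was 45.9, 64.8 and 44.4 CPM in vehicle and 45.0, 61.0 and 46.7 CPM under Dex (LFC -0.02, SE 0.20). Vehicle and Dex libraries overlapped in all 3 mutants. For GRL/L and the double mutant, whose replicate numbers paired vehicle with Dex, the 12 libraries were also fitted alone with culture as a block. In that fit 0 of 10 genes passed for either, where 0 and 15 of 14676 genes did. An unadjusted p under 0.05 was reached by 494 and 1303 of the 14676, and by 1 of the 10 in each. That gene was Sesn1 for GRL/L, higher under Dex in 3 of 3 pairs (LFC 0.18, SE 0.06, edgeR adjusted p = 1). It was Cdkn1a for the double mutant, lower under Dex in 3 of 3 pairs (LFC -0.12, SE 0.03, edgeR adjusted p = 0.201), and Cdkn1a was also lower in 3 of 3 GRL/L pairs (LFC -0.05, SE 0.03). The median LFC of the 10 genes was -0.08 for GRD/D, 0.02 for GRL/L and -0.02 for GRD+L/D+L, beside 0.0030, -0.0033 and 0.0014 over all genes tested.

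A pass in GRwt/wt and none in a mutant does not show that the responses differ, so the difference in response was tested directly. For Sesn1 it was -1.24 (SE 0.29) for GRD/D, -1.32 (SE 0.28) for GRL/L and -1.52 (SE 0.28) for GRD+L/D+L against GRwt/wt, with edgeR adjusted p of 0.688, 0.242 and 0.0977. None of these passed. With DESeq2 the same differences had adjusted p of 0.0334, 0.00337 and 0.00021 and passed, so the call depends on the tool. The GRD+L/D+L difference also passed with edgeR without GRwt/wt Dex replicate 3 (adjusted p = 0.0286) or without GRwt/wt vehicle replicate 3 (adjusted p = 0.0449). Of the 10 genes 0 passed in these 3 comparisons with edgeR and 1, Sesn1, had an unadjusted p under 0.05 in each, where 0%, 0.0254% and 0.0254% of all genes passed. Of all 15748 genes, 1119, 990 and 796 had an unadjusted p under 0.05.

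Set side by side under Dex, Sesn1 was lower in every mutant than in GRwt/wt. GRD/D had an LFC of -1.68 (SE 0.20, edgeR adjusted p = 0.000622), GRL/L one of -1.32 (SE 0.20, adjusted p = 0.00172) and GRD+L/D+L one of -1.01 (SE 0.20, adjusted p = 0.00913). When just the 2 genotypes compared were fitted, the GRL/L call held (adjusted p = 0.0255) whereas GRD/D (0.0685) and GRD+L/D+L (0.186) lost theirs. These comparisons share the 3 GRwt/wt Dex libraries with one another and with the Dex response above. The highest mutant library under Dex, at 61.0 CPM, was below the lowest GRwt/wt Dex library, at 74.5 CPM. Sesn1 was the 1 member that passed in GRD/D, where 0.305% of all genes did, and in GRL/L, where 5.47% did. In GRD+L/D+L, where 4.89% of genes passed, Cdkn2b passed as well, with an LFC of -1.09 (SE 0.30, edgeR adjusted p = 0.043). Cdkn2b was 84.2, 76.1 and 150.2 CPM in GRwt/wt Dex and 36.5, 45.0 and 64.7 CPM in GRD+L/D+L Dex. The groups did not overlap, but the call was lost without any of GRwt/wt Dex replicates 1 and 3 and GRD+L/D+L Dex replicates 1 and 2, with adjusted p of 0.0552, 0.228, 0.111 and 0.165.

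The next comparison asked whether the genes differ between genotypes before Dex is added. In GRL/L against GRwt/wt, 4 of the 10 genes were lower and passed, namely Bax, Trp53, Cdkn2b and Cdkn1a, beside 23% of all genes tested. In GRD+L/D+L 2 were lower and passed, Cdkn2b and Bax, beside 20.4% of all genes. In GRD/D, 0 of 10 passed with edgeR and with DESeq2, 1 (Bax) had an unadjusted p under 0.05, and 0.0127% of all genes passed. An unadjusted p under 0.05 was there reached by 1946 of all 15748 genes. With GRwt/wt vehicle replicate 1 left out, 2 of 10 passed for GRL/L beside 3831 of 15686 genes, and 2 of 10 for GRD+L/D+L beside 3732 of them. When just the 2 genotypes compared were fitted, Bax in GRL/L kept its call (adjusted p = 0.0319), the other 3 calls in GRL/L were lost, with adjusted p of 0.0529 to 0.0771, and both calls in GRD+L/D+L were lost, with adjusted p of 0.0886 for Cdkn2b and 0.115 for Bax. The median LFC of the 10 genes was -0.23 in GRL/L, 0.05 in GRD+L/D+L and -0.03 in GRD/D, beside -0.05, -0.05 and -0.06 over all genes.

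Bax, which encodes a pore-forming protein of the mitochondrial outer membrane that commits cells to apoptosis, was 164.1, 128.7 and 88.2 CPM in GRwt/wt vehicle. It was 73.1, 68.7 and 70.3 CPM in GRL/L vehicle (LFC -0.84, SE 0.17, edgeR adjusted p = 0.0026) and 67.6, 85.3 and 76.7 CPM in GRD+L/D+L vehicle (LFC -0.73, SE 0.17, adjusted p = 0.00825). Neither mutant group overlapped GRwt/wt. Both calls held when any single library was left out, over which the LFC ranged from -0.88 to -0.48 in GRD+L/D+L and from -1.0 to -0.61 in GRL/L. The 2 GRD/D vehicle libraries, at 88.3 and 87.0 CPM, lay close to the lowest GRwt/wt library (LFC -0.53, SE 0.20, adjusted p = 0.342). That library was GRwt/wt vehicle replicate 3, the one with the most macrophage marker counts, and without it Bax was lower in GRD/D and passed (LFC -0.69, SE 0.16, adjusted p = 0.0239), whereas without replicates 1 and 3 it did not (LFC -0.58, SE 0.17, adjusted p = 0.0997).

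Cdkn2b, the gene of the CDK4 and CDK6 inhibitor p15, was 109.3, 163.5 and 83.6 CPM in GRwt/wt vehicle and 117.6 and 111.4 CPM in GRD/D vehicle. In GRL/L vehicle it was 58.9, 53.4 and 65.9 CPM, an LFC of -1.0 (SE 0.30, edgeR adjusted p = 0.0215). In GRD+L/D+L vehicle it was 37.7, 53.3 and 56.5 CPM, an LFC of -1.27 (SE 0.30, adjusted p = 0.00773). All vehicle libraries of the 2 genotypes with the ligand-binding domain change thus lay below all vehicle libraries of the 2 genotypes without it. The GRD+L/D+L call held without any single library, with LFC of -1.42 to -0.99. The GRL/L call was lost without GRwt/wt vehicle replicate 2 (LFC -0.72, adjusted p = 0.0898), and also without GRL/L vehicle replicate 1 or 2 (adjusted p = 0.0655 and 0.081).

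The Trp53 and Cdkn1a calls in GRL/L depended on single libraries. Trp53 was 86.5, 84.0 and 82.8 CPM in GRL/L vehicle, against 184.8, 117.1 and 93.1 CPM in GRwt/wt vehicle (LFC -0.64, SE 0.20, edgeR adjusted p = 0.026). Without GRwt/wt vehicle replicate 1, the GC-shifted library, its LFC was -0.31 (adjusted p = 0.135), and without replicates 1 and 3 it was -0.49 (adjusted p = 0.0644). Cdkn1a was 648.3, 532.7 and 637.6 CPM in GRL/L vehicle (LFC -0.96, SE 0.33, adjusted p = 0.0439). Its LFC was -0.60 (adjusted p = 0.197) without GRwt/wt vehicle replicate 1 and -0.94 (adjusted p = 0.0755) without replicate 2, whereas it was -1.24 (adjusted p = 0.00436) without replicate 3 and -1.08 (adjusted p = 0.0344) without replicates 1 and 3, where it passed. Its lowest GRwt/wt library, replicate 3 at 583.0 CPM, lay within the GRL/L range and was also the one with the most macrophage marker counts, whose part in this value was not tested. Leaving out any 1 of the 3 GRL/L vehicle libraries also ended both calls, with adjusted p of 0.0651 to 0.0739 for Trp53 and 0.0894 to 0.136 for Cdkn1a.

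The remaining genes did not pass in vehicle against GRwt/wt. Cdkn2a had LFC of 0.10 for GRD/D, -0.47 for GRL/L and -0.19 for GRD+L/D+L, with SE of 0.43, 0.39 and 0.39. Without GRwt/wt vehicle replicate 1 these were 0.53, -0.05 and 0.245, and none passed. Mdm2, Ccng1 and Trp53inp1 had positive LFC in all 3 mutants, 0.17 to 0.46, 0.20 to 0.40 and 0.62 to 0.89, and these values rested largely on GRwt/wt vehicle replicate 1. With that library left out the LFC of Ccng1 was -0.08 for GRD/D, -0.29 for GRL/L and -0.18 for GRD+L/D+L. That of Mdm2 was then 0.13, -0.175 and 0.0028, and that of Trp53inp1 was 0.24, 0.34 and 0.09. Sesn1 was higher in GRD+L/D+L with no overlap (LFC 0.51, SE 0.20, edgeR adjusted p = 0.0724), and passed with DESeq2 (adjusted p = 0.0351). Mdm2, Ccng1 and Trp53inp1 are also the 3 genes most depleted in GRwt/wt vehicle replicate 1, from which they had 71.8, 131.7 and 20.9 CPM against 262.0, 1364 and 544.3 CPM in replicate 2. In GRD+L/D+L, the count of genes that passed changed with the GRwt/wt library left out, to 4 without replicate 2 (Cdkn2b, Mdm2, Ccng1 and Bax, beside 3587 of 15681 genes) and to 5 without replicate 3 (Trp53, Cdkn1a, Cdkn2b, Bax and Sesn1, beside 4434 of 15680 genes).

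**Figure D4:**
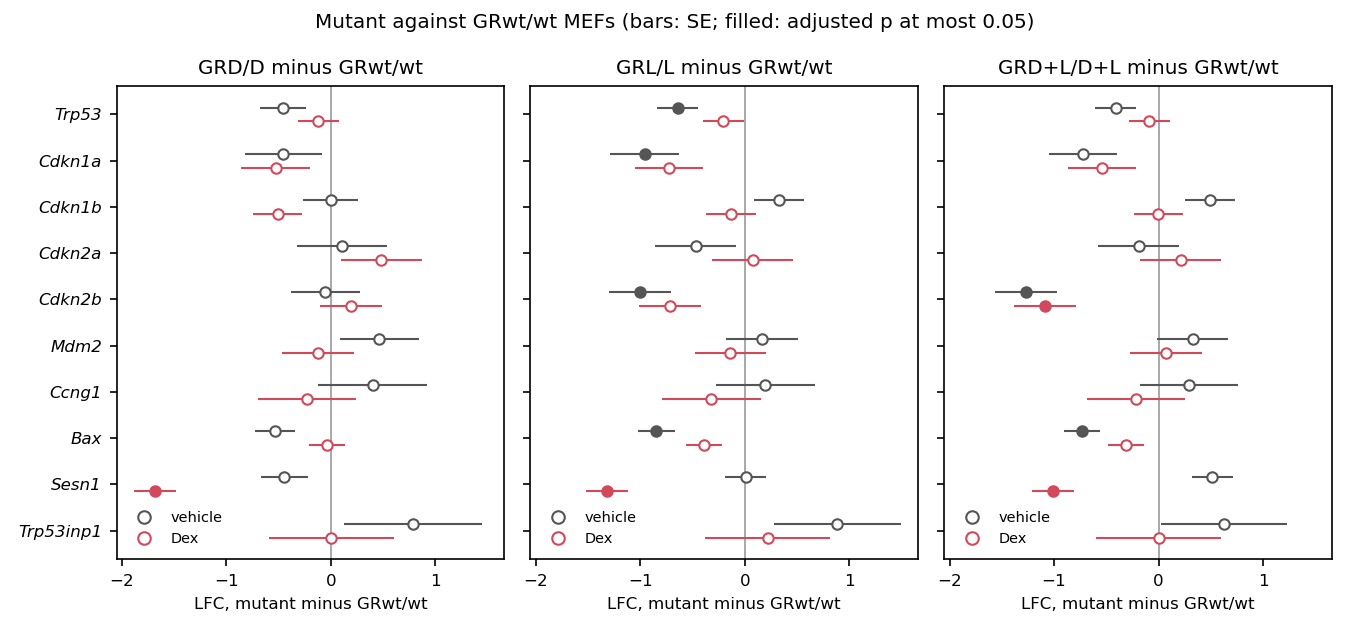
LFC of the 10 genes in each mutant against GRwt/wt (x axis, mutant minus GRwt/wt, log2 scale) in vehicle (grey) and under Dex (red). Bars are SE and filled points passed the test. Bax and Cdkn2b are filled in vehicle for GRL/L and GRD+L/D+L, and Sesn1 is filled under Dex for all 3 mutants.

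Among the mutants in vehicle, Sesn1 was the member that passed, being higher in GRD+L/D+L than in GRD/D with an LFC of 0.96 (SE 0.23, edgeR adjusted p = 0.0401), where 1.57% of all genes passed. Its vehicle means followed the order GRD+L/D+L (51.7 ± 11.4 CPM, SD, n = 3), GRL/L (36.4 ± 2.85, n = 3), GRwt/wt (36.2 ± 5.33, n = 3) and GRD/D (26.6 ± 1.94, n = 2). GRL/L and GRwt/wt did not differ beyond their spread. The Sesn1 call was lost without either GRD/D vehicle library (adjusted p = 0.314 and 0.272) or without GRD+L/D+L vehicle replicate 2 (adjusted p = 0.184). Cdkn2b had the largest shift in the same comparison, -1.22 (SE 0.32, adjusted p = 0.0657), with no overlap between the groups, and it passed with DESeq2. GRL/L against GRD/D gave 0 calls among the 10 genes with edgeR and with DESeq2, where 1.91% of all genes passed. An unadjusted p under 0.05 was reached by 1 of the 10, Cdkn2b (LFC -0.95, SE 0.32), and by 2440 of all 15748 genes. These groups of 3 and 2 libraries did not overlap in 9 of 10 genes. The share of all genes without overlap was not computed, so this count is no result about the 10. When just these genotypes were fitted, 4 passed (Trp53, Cdkn2b and Bax lower, Sesn1 higher), beside 5059 of 15081 genes. GRD+L/D+L against GRL/L likewise gave 0 calls with both tools, where 0.108% of all genes passed. Here 1 gene, Sesn1 (LFC 0.51, SE 0.20), had an unadjusted p under 0.05, beside 1507 of all 15748 genes.

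For both GRL/L and GRD+L/D+L, cultures of 1 genotype mostly differed more from one another than they did between vehicle and Dex. In these genotypes vehicle and Dex libraries with the same number deviated together across all genes (correlations of deviations from the group means of 0.26 to 0.58 and 0.55 to 0.85). The spread between GRD+L/D+L replicate numbers exceeded the largest difference between vehicle and Dex of 1 number in 10 of 10 genes. In GRL/L it did so in 7 of 10. The largest such difference was 0.245 on the log2 scale in GRD+L/D+L and 0.214 in GRL/L. In GRwt/wt and GRD/D the numbers did not pair throughout, since vehicle replicate 2 deviated together with Dex replicate 3 (0.504 and 0.384) and not with Dex replicate 2 (0.0011 and -0.17). Libraries of 1 number may there not be of 1 culture, so the comparison was not made for them.

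GRD+L/D+L replicate 1 illustrates this spread. Cdkn2a was 96.2 CPM with vehicle and 96.7 CPM with Dex in replicate 1, against 232.6 and 201.8 CPM in replicate 2 and 204.7 and 198.6 CPM in replicate 3. Cdkn1a was 476.8 and 433.2 CPM in replicate 1, against 681.9 to 916.4 CPM in the others. Mdm2, at 134.4 and 132.6 CPM, was likewise below the 217.9 to 246.2 CPM of replicates 2 and 3. Trp53 and Cdkn1b ran the other way, with Trp53 at 117.0 and 121.6 CPM and Cdkn1b at 101.0 and 99.0 CPM in replicate 1, against 80.2 to 91.0 CPM and 60.5 to 70.5 CPM in the others. This culture was thus low in Cdkn2a, Cdkn1a and Mdm2 and high in Trp53 and Cdkn1b in both of its libraries.

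Libraries low in Cdkn2a mostly had high levels of 20 proliferation genes, which serve replication and mitosis (Mki67, Top2a, Ccnb1, Pcna, Mcm2 and others). The 4 libraries with the lowest Cdkn2a were both libraries of GRD+L/D+L replicate 1, GRwt/wt vehicle replicate 3 (102.2 CPM) and GRD/D Dex replicate 2 (109.5 CPM). Their summed proliferation levels of 791.5, 794.1, 695.4 and 631.2 CPM were among the 5 highest of the 23, against 331.1 to 638.5 CPM elsewhere. They came from 3 genotypes and both treatments. GRwt/wt Dex replicates 2 and 3 were exceptions. They held 113.8 and 137.7 CPM of Cdkn2a (ranks 5 and 8 from the lowest), with sums of 462.7 and 394.8 CPM (ranks 9 and 15 from the highest). Over the 23 libraries the Spearman rho with this sum was -0.81 for Cdkn2a, -0.80 for Cdkn1a, -0.84 for Mdm2 and -0.69 for Ccng1, and it was -0.53 for Bax, -0.33 for Cdkn2b, -0.29 for Trp53inp1, 0.63 for Cdkn1b, 0.10 for Trp53 and 0.09 for Sesn1. Without GRwt/wt vehicle replicates 1 and 3 the values for Cdkn2a, Cdkn1a, Mdm2 and Cdkn1b were -0.82, -0.82, -0.92 and 0.67. These coefficients describe 23 libraries that include vehicle and Dex pairs of the same cultures. GRwt/wt vehicle replicate 3 and GRD/D Dex replicate 2 also held the most macrophage marker counts (5351 and 1892 CPM), whereas the GRD+L/D+L replicate 1 libraries held 88.0 and 84.7 CPM.

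**Figure D5:**
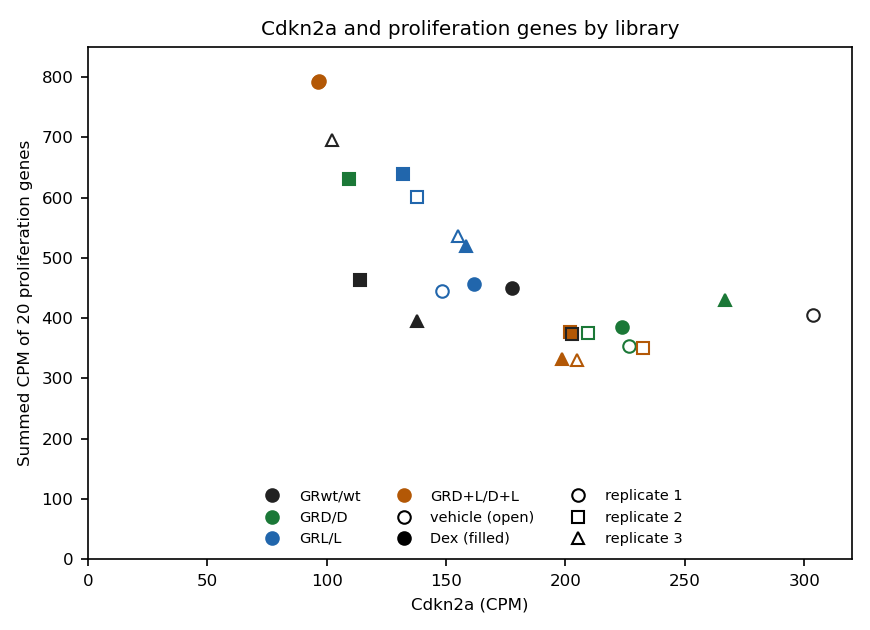
Cdkn2a (x axis, CPM) and the summed CPM of 20 proliferation genes (y axis) in each of the 23 libraries, coloured by genotype, with open symbols for vehicle, filled symbols for Dex and shapes for the replicate number. The vehicle and Dex libraries of GRD+L/D+L replicate 1 coincide at the upper left (96.2 and 96.7 CPM of Cdkn2a), and libraries from 198.6 CPM of Cdkn2a upwards all have sums at or below 429.8 CPM.

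Cdkn2a and its neighbour Cdkn2b did not keep a fixed ratio. Their counts stood at 2.55 to 4.48 Cdkn2a per Cdkn2b count in the 6 GRD+L/D+L libraries, at 2.21 to 2.66 in GRL/L, at 1.39 to 1.96 in GRD/D and at 0.92 to 2.78 in GRwt/wt. The ratio in GRwt/wt reached 2.78 in vehicle replicate 1. Apart from that library, every GRL/L and GRD+L/D+L library lay above every library of GRwt/wt and GRD/D. As both counts come from the same library, scaling does not enter this ratio.

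Wider lists of the pathway held 129 genes in 6 groups, of which 125 were tested, with Ccnd1 counted in 2 of the groups. With Dex in GRwt/wt 0 of the 125 passed with edgeR, 16 had an unadjusted p under 0.05, and DESeq2 called 3 (1 higher and 2 lower). Of all 15748 genes, 2454 had an unadjusted p under 0.05 there. With GRwt/wt vehicle replicate 3 left out, 3 p53 regulators were higher and 1 p53 target was lower, beside 361 of all 15680 genes, and with replicates 1 and 3 both left out 2 p53 regulators were higher, beside 63 of 16193. With Dex in the mutants 0 passed with either tool, and 1 in GRD/D had an unadjusted p under 0.05, beside 154 of all 15748 genes. In GRL/L against GRwt/wt in vehicle 24 of 125 passed (11 higher and 13 lower), and in GRD+L/D+L 16 did (7 higher and 9 lower), beside the 23% and 20.4% of all genes given above. In GRD/D 0 passed with edgeR and with DESeq2. An unadjusted p under 0.05 was reached by 18 of the 125, beside 1946 of all 15748 genes. Leaving out GRwt/wt vehicle replicate 3 gave 6 lower p53 targets and 4 higher p53 regulators there. In that fit 1019 of all 15680 genes passed and 8 of the 12 macrophage markers were higher, and the part of these in the counts was not tested.

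Of 16 regulators of p53, 7 rose and 2 fell in GRL/L, and 5 rose and 2 fell in GRD+L/D+L, with median LFC of 0.60 and 0.53 beside -0.05 and -0.05 over all genes, of which 23% and 20.4% passed. The counts without GRwt/wt vehicle replicate 1 were 8 and 3 in GRL/L and 8 and 2 in GRD+L/D+L, beside 3831 and 3732 of all 15686 genes, and without replicates 1 and 3 they were 8 and 1, and 8 and 0, beside 3935 and 3199 of 16193. Hipk2, a kinase that phosphorylates p53, rose most. In vehicle, GRwt/wt libraries held 3.75, 3.01 and 8.43 CPM and GRD/D libraries 7.64 and 9.47 CPM. Its level was 23.4, 29.2 and 24.7 CPM in GRL/L vehicle and 29.0, 35.6 and 26.7 CPM in GRD+L/D+L vehicle. All vehicle and Dex libraries of these last genotypes, at 20.6 CPM or more, thus lay above all libraries of the other 2, at 10.8 CPM or less. Against GRwt/wt, GRL/L had an LFC of 2.34 (SE 0.30, edgeR adjusted p = 0.000169) and GRD+L/D+L had 2.58 (SE 0.31, adjusted p = 0.000141). Against GRD/D it was 1.59 (SE 0.34, adjusted p = 0.0221) and 1.83 (SE 0.34, adjusted p = 0.0156).

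Other regulators differed in the same comparisons. Atm, the kinase that signals DNA breaks to p53, had an LFC of 2.1 (SE 0.60) in GRL/L and one of 1.85 (SE 0.60) in GRD+L/D+L, and Mdm4, a relative and partner of Mdm2, had 1.545 (SE 0.49) in GRL/L. Both were far lower in GRwt/wt vehicle replicate 1 than elsewhere (1.10 CPM of Atm, against 18.9 and 27.5 CPM in replicates 2 and 3, and 6.79 CPM of Mdm4, against 61.5 and 87.7 CPM). Without that library the Atm values were 1.55 and 1.31 and the Mdm4 value was 1.02, all still past the test. Trp53bp1, a p53-binding repair protein, was higher in GRD+L/D+L (LFC 1.17, SE 0.18, edgeR adjusted p = 0.000733). Its vehicle libraries held 91.7 to 120.4 CPM there and 98.5 to 108.7 CPM in GRL/L, against 29.6 to 56.8 CPM in GRwt/wt. Mdm4 was likewise 102.2 to 117.2 CPM in the double mutant with vehicle, above all GRwt/wt vehicle libraries. Neither shift was thus confined to the genotype for which its LFC is given, since at most 3 rises per list are named. Chek2, another kinase that acts on p53, was lower in GRL/L (LFC -0.71, SE 0.19, adjusted p = 0.0119), as it was against GRD/D (LFC -0.97, SE 0.21, adjusted p = 0.0216). Its LFC of -0.56 (SE 0.19, adjusted p = 0.0417) in the double mutant GRD+L/D+L also passed. The Chek2 calls against GRwt/wt were lost without GRwt/wt vehicle replicate 3 (adjusted p = 0.0639 and 0.25). Rpl11, a ribosomal protein that binds Mdm2 and whose reads may be shared with pseudogenes, had -0.70 and -0.69 (SE 0.18 for both), and lost both calls without GRwt/wt vehicle replicates 1 and 3 (adjusted p = 0.0621 and 0.0816).

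Among 35 other p53 targets, 1 rose and 5 fell in GRL/L, and 0 rose and 4 fell in GRD+L/D+L, with median LFC of -0.19 and -0.23. These shares are below the 23% and 20.4% of all genes and are no result about p53 targets. DESeq2 called 3 higher and 9 lower for GRL/L, beside 4529 of 15748 genes, and 0 and 5 for GRD+L/D+L, beside 4085. Zmat3 was the 1 that was higher (LFC 0.49, SE 0.15), and Gdf15 (-1.80, SE 0.58), Dcxr (-1.07, SE 0.30) and Phlda3 (-0.92, SE 0.25) fell most. In GRD+L/D+L Dcxr (-1.05, SE 0.30), Sesn2 (-0.59, SE 0.20) and Bbc3 (-0.58, SE 0.20) fell most. The counts moved with the GRwt/wt library left out. Without vehicle replicate 1 they were 2 higher and 3 lower in GRL/L and 1 and 1 in GRD+L/D+L, and Dcxr, Phlda3, Sesn2 and Bbc3 no longer passed. Without replicate 3 they were 2 and 10, and 1 and 12, and without both they were 1 and 9, and 0 and 9. The all-gene counts of these fits were 3831 and 3732 of 15686 without replicate 1, 5606 and 4434 of 15680 without replicate 3, and 3935 and 3199 of 16193 without both, so the share of targets was not below that of all genes in each of these fits. Zmat3 no longer passed without both (adjusted p = 0.119). Macrophage markers moved in the same comparisons. With all libraries 10 of the 12 were lower for GRD+L/D+L and 0 passed for GRL/L, without replicate 1 the counts were 12 lower for GRD+L/D+L and 0 for GRL/L, and without replicate 3 all 12 were higher for GRL/L and 0 passed for GRD+L/D+L. Their part in the counts of the lists was not tested.

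In the list of 18 CDK, cyclin and RB family genes, 2 rose and 3 fell in GRL/L, and 2 rose and 2 fell in GRD+L/D+L. These counts are near the 23% and 20.4% of all genes, so they are no result about the list. Rbl2, which encodes the RB relative p130, was higher in both (LFC 0.75 and 0.80, SE 0.23 for both, with 0.41 and 0.48 without GRwt/wt vehicle replicate 1 and 1.05 and 1.12 without replicate 3), as was E2f3 (0.59 and 0.54, SE 0.15 for both), whose GRD+L/D+L call was lost without GRwt/wt vehicle replicates 1 and 3 (adjusted p = 0.0637). Cdkn2d (-0.865, SE 0.23), Cdk4 (-0.64, SE 0.18) and E2f1 (-0.51, SE 0.18) were lower in GRL/L, and all 3 calls were lost without GRwt/wt vehicle replicate 1 (adjusted p = 0.0562, 0.0605 and 0.223). Ccne1 (-0.74, SE 0.18) and Ccnd3 (-0.65, SE 0.22) were lower in GRD+L/D+L, and Ccnd3 lost its call without that library (adjusted p = 0.356). Without vehicle replicate 1 the counts were 2 higher and 0 lower for GRL/L and 2 and 1 for GRD+L/D+L, without replicate 3 they were 5 and 4, and 3 and 3, and without both they were 4 and 0, and 3 and 2.

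Of 18 regulators of the Ink4-Arf locus, such as Polycomb genes, Ring1 was lower in GRL/L (LFC -0.58, SE 0.18) and Twist1 in GRD+L/D+L (-0.84, SE 0.24), shares below those of all genes given above. Without GRwt/wt vehicle replicate 1 these counts turned to 3 higher and 0 lower, and 3 higher and 1 lower, and Ring1 no longer passed (adjusted p = 0.113). With replicate 3 left out instead, they were 1 higher and 3 lower, and 2 higher and 2 lower. The direction of these counts thus changed with the library left out. Of 23 genes of the senescence-associated secretory programme, 19 were tested. Igfbp5 was higher (LFC 1.815, SE 0.40) and Timp1 was lower (-1.19, SE 0.38) in GRL/L. In GRD+L/D+L 0 passed with edgeR and with DESeq2 (4 at an unadjusted p under 0.05, beside 5599 of all 15748 genes). The Timp1 call was lost without GRwt/wt vehicle replicate 1 (adjusted p = 0.0777). Of the 20 proliferation genes 0 passed in either mutant with edgeR and with DESeq2, with 1 at an unadjusted p under 0.05 in each. This too moved with the GRwt/wt vehicle library left out, to 1 lower in each mutant without replicate 1, to 3 higher for GRL/L and 1 higher for GRD+L/D+L without replicate 3, and to 1 lower in each without both.

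By Spearman correlation over the 23 libraries, the genes most like Trp53 were Atn1 (rho 0.93), Ap3s2 (0.92) and Ccdc86 (0.91). The genes most like Cdkn1a were Pdrg1 (0.96), Rnf181 (0.95) and Cd81 (0.94), and those most like Cdkn2a were Gas2l1 (0.90), Ubtd1 (0.88) and Fitm2 (0.87). For Mdm2 they were Cdkl2 (0.92), Lgr4 (0.91) and Pmaip1 (0.89), the last of which, the gene of NOXA, is itself a p53 target. Across all genes the median rho was between -0.03 and 0.01 for these 4 genes. Among the 45 pairs of the 10 genes the median rho was 0.16 without GRwt/wt vehicle replicate 1, and 0.05 with it. The pairs with the highest rho in the 22 libraries were Mdm2 with Ccng1 (0.87), Cdkn1a with Mdm2 (0.86), Cdkn2b with Bax (0.83) and Cdkn1a with Ccng1 (0.815), and the lowest was Cdkn1b with Cdkn2a (-0.745). Trp53 had rho of 0.16 with Cdkn1a and -0.12 with Mdm2. The libraries share cultures and the GC pattern described above, so these values carry no test.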

How the data were processed

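The authors deposited unnormalised counts of reads per Ensembl gene, 1 column for each of 23 libraries. Their methods describe TruSeq library preparation, NovaSeq sequencing, mapping to mm10 (GRCm38) with HISAT2 2.1.0 and counting of uniquely mapped reads with featureCounts 2.0.0 (versions from the submitters' processing notes). Strandedness and the annotation release were not given in the sources used here. Symbols were matched for 55141 of 55487 identifiers, and GENCODE M21 gave coordinates, exon lengths and GC content.

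Counts of all 23 libraries were fitted in edgeR 4.0.16 (R 4.3.3) with 1 mean per group, TMM scaling, filterByExpr and a prior count of 0.125, and tested with the quasi-likelihood test. All 8 groups thus shared 1 estimate of the spread. P-values were adjusted (Benjamini-Hochberg) over 15748 genes, and SE is the LFC divided by the square root of F. Alternatives were RLE and upper-quartile scaling, no filter or at least 10 counts in every library, an added absolute LFC of 1 (the study's threshold), a fit restricted to the genotypes in question, a block for replicate number, DESeq2 1.42.0 and leaving libraries out. Tested on simulated counts, the fits returned the simulated fold changes in the median but did not call all of the changed genes, least often the smaller changes. Replicates of every group differed by more than sampling noise (lowest mean chi-square per gene 9.62).

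The 10 genes, the wider lists and the tests were chosen with earlier results of these data known. Named beyond the 10 were up to 3 rises and 3 falls per list among genes that passed in vehicle between genotypes, the 3 genes most correlated with Trp53, Cdkn1a, Cdkn2a and Mdm2, and overlapping genes. Fkbp5 was named as a check of the Dex response. Of the genes this rule selects, 1 is not reported here.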

Additional observations from a re-analysis of the deposited data

How the results depend on the processing

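For the 16 counts of members past the test, 246 values were recomputed, of which 209 stayed within 1.5 times the main count and 37 moved. Of 174 values for 12 single-gene differences, 134 kept their direction and call, 40 lost the call and 0 reversed. When just the genotypes compared were fitted, the counts fell to 0 for Dex in GRwt/wt, for GRD/D and GRD+L/D+L against GRwt/wt under Dex and for GRD+L/D+L against GRwt/wt in vehicle, to 1 for GRL/L against GRwt/wt in vehicle, and rose to 4 for GRL/L and 2 for GRD+L/D+L against GRD/D in vehicle. An added absolute LFC of 1 left 0 for GRL/L and 1 for GRD+L/D+L against GRwt/wt, and 0 for GRD+L/D+L against GRD/D, all in vehicle. With no expression filter these were 2 for GRL/L against GRwt/wt in vehicle, 1 for GRD+L/D+L against GRwt/wt under Dex and 0 for GRD+L/D+L against GRD/D, and upper-quartile scaling also gave 0 for the last. DESeq2 called 2 in GRD+L/D+L against GRD/D and 1 in each of the 3 differences in Dex response. The cause of these changes was not tested. Most of these member counts are given without the count of all genes in the same fit, so their changes are no result about the members.

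Leaving out 1 library at a time gave 1 to 2 members for Dex in GRwt/wt, 0 to 1 for GRD/D, 1 to 4 for GRL/L and 2 to 5 for GRD+L/D+L against GRwt/wt in vehicle, 1 to 2 for GRD+L/D+L against GRwt/wt under Dex, 0 to 1 for GRD+L/D+L against GRD/D in vehicle and 0 to 1 for the difference in Dex response of GRD+L/D+L. The counts that rose did so without GRwt/wt vehicle replicate 2 or 3 or, for the Dex response, without GRwt/wt Dex replicate 3 or vehicle replicate 3. Where a group was left with 1 library, that library was assumed to vary like the other groups. For the wider lists and for the LFC of single members, the values without GRwt/wt vehicle replicates 1 or 3 were added after seeing the data.

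With the replicate number as a block, the count for GRD+L/D+L against GRD/D in vehicle was 2, and no other count of members moved by over 1.5 times. Deviations of same-numbered vehicle and Dex libraries correlated at 0.261 to 0.848 across GRL/L and GRD+L/D+L and at -0.0601 to 0.525 in GRwt/wt and -0.166 to 0.24 in GRD/D, so the numbers do not pair the samples throughout. With culture as a block and the GRL/L and GRD+L/D+L libraries alone, a fit added after seeing the data, 0 members passed with Dex in either. Every member had at least 378 counts in every library, so none was limited by counts near 0.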
